A study of Homo sapiens with 6 samples.

Results

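The genes described here are 10 regulators of the circadian clock: BHLHE40 and BHLHE41, PER1, PER2 and PER3, CRY1 and CRY2, CLOCK, NR1D1 and NFIL3. They were chosen by symbol, with earlier results of these data known, out of the 38100 genes counted in the series. All 10 had enough counts to be tested among the 17720 genes that passed a filter on low counts. The samples were HK2 cells, an established, immortalized epithelial line from the proximal tubule of the human kidney, with a wild-type genotype label in all 6 samples. A total of 3 samples carried a control adenovirus with an empty vector (AdCtrl), and 3 carried an adenovirus for overexpression of SIRT4 (AdSIRT4), a sirtuin best known from the mitochondria. Every sample was stimulated with TGF-β1, the profibrotic cytokine, so no sample shows the clock genes without TGF-β1, and the labels give neither its dose nor the hour of collection. Polyadenylated RNA was sequenced because the study asked how SIRT4 overexpression alters both gene levels and splicing under TGF-β1. Only gene levels are described here.

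The clock of mammalian cells is a feedback loop of transcription. CLOCK and its partner BMAL1 bind E-box sequences and activate the PER and CRY genes, whose proteins return to the nucleus and repress CLOCK and BMAL1. Interlocking loops act beside this core: BHLHE40 and BHLHE41 compete for the same E-boxes, NR1D1 represses BMAL1 and NFIL3 through a distinct element, and NFIL3 represses D-box genes that DBP, TEF and HLF activate. In the kidney tubule, the clock is known for the daily rhythm of sodium transport, and BHLHE40 is also known as a gene induced by TGF-β and by hypoxia. The labels give no hour of collection and no series of times. A difference in the level of a clock gene and a shift in its daily phase therefore cannot be told apart here.

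The response elements of the loops can be read in the members' own promoters, and the windows below are shown because they mark which members carry the letters that other members bind. RefSeq promoters on GRCh38.p14, each from 250 bases before to 50 bases after a transcription start, were available for all 10 members (14 promoters). They were searched on both strands for the E-box CACGTG, the E'-box CACGTT, the D-box forms TTATGTAA and TTACGTAA, the NR1D1 element TAGGTCA and the cAMP response element TGACGTCA. CACGTG reads the same on both strands, and no site of one motif counted as another. Each window is printed in the direction of the gene with the motif in capitals (AACGTG is CACGTT on the opposite strand), and each lies upstream of the RefSeq start that its promoter belongs to. For PER2, CRY2 and CLOCK that start is an internal one, so the window lies within the annotated extent of the gene. The other promoter of CRY2, of CLOCK, of PER3 and of NFIL3 held none of the motifs. The E-box CACGTG was found in BHLHE40, BHLHE41 and PER1, at chr3:4979187-4979212 on the plus strand and at chr12:26125065-26125100 and chr17:8152557-8152592 on the minus strand. Its first base lies 245, 48 and 173 bases before the start of the 3 genes.
BHLHE40: tccaaCACGTGagactcatgtgatga
BHLHE41: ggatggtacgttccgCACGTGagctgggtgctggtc
PER1: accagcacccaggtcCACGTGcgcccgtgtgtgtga
The E'-box CACGTT was found in 5 members: PER2 (chr2:238288787-238288822, minus strand, 197 bases before the start), CRY1 (chr12:107093618-107093653, minus, 89 bases), CRY2 (chr11:45847272-45847307, plus, 188 bases), CLOCK (chr4:55546099-55546134, minus, 187 bases) and NR1D1 (chr17:40100737-40100772, minus, 168 bases).
PER2: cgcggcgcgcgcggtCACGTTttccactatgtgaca
CRY1: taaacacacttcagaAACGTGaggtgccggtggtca
CRY2: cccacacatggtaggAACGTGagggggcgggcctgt
CLOCK: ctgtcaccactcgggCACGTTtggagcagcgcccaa
NR1D1: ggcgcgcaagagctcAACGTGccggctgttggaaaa
PER3 held the D-box form TTATGTAA, which NFIL3 binds, at chr1:7784099-7784136 on the plus strand, 177 bases before its start.
PER3: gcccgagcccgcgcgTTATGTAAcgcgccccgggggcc
Among all 35116 RefSeq promoters of this length, 7.26% held CACGTG, 5.34% CACGTT and 0.886% TTATGTAA. TTACGTAA, in 0.125% of all promoters, was found in PER2 at 3 bases before the start. TAGGTCA, in 1.85% of all promoters, was found in CRY2 and NFIL3, and TGACGTCA, also in 1.85%, in none of the 14. Matches are a description of these letters in these windows and no measure of binding.

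The libraries held between 42102861 and 53677241 counts in the AdCtrl group and 41537353 (replicate 1) to 85684748 counts in the AdSIRT4 group. SIRT4 itself stood at 0.573, 1.11 and 1.11 CPM (counts scaled to a common library size, by the TMM method) in AdCtrl cells and at 51.2, 92.7 and 84.0 CPM in AdSIRT4 cells. SIRT4 thus rose by 6.36 on the log2 scale (SE 0.357, where SE is the standard error), with an adjusted p of 0.00801 by the quasi-likelihood test of edgeR. Without AdCtrl replicate 1, 2 or 3 the log2 fold change was 6.10, 6.50 or 6.52, and the adjusted p from edgeR was 0.0559, 0.203 or 0.186. The counts do not separate the adenoviral transcript from the one of the cells' own gene. Of 14 tubular epithelial markers, 8 reached a mean of 1 FPKM in AdCtrl cells (a level scaled by gene length and library size, whose unit was inferred from the values). KRT8, KRT18, PAX8 and GGT1 were among them, while LRP2, CUBN, AQP1 and ANPEP, which define the mature proximal tubule, were at or near 0. CDH1 and PAX2 also stayed under 1 FPKM, with means of 0.119 and 0.314 FPKM in AdCtrl cells. The summed tubular markers ranged from 935 to 982 FPKM in AdCtrl and from 908 to 1055 FPKM in AdSIRT4 samples. Among markers of other cell types, 1 of 5 fibroblast genes (LUM) and 1 of 5 immune genes (CD68) reached 1 FPKM. None of 5 endothelial and of 4 podocyte genes did, and PTPRC, CD3E, MS4A1, PDGFRA and KDR were at or near 0. The fibroblast sums ranged from 5.50 to 6.13 FPKM in AdCtrl and from 5.27 to 7.10 FPKM in AdSIRT4, the immune sums from 17.0 to 19.2 and from 19.0 to 22.2 FPKM, the endothelial sums from 0.0593 to 0.0853 and from 0.0604 to 0.109 FPKM, and the podocyte sums from 0.648 to 0.785 and from 0.558 to 0.965 FPKM.

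One library stood apart from its group in a way that touches several clock genes. Relative to the other AdSIRT4 replicates, genes in AdSIRT4 replicate 1 were lower the longer they were (Spearman correlation with gene length -0.58 across genes, which are not independent replicates, against -0.18 to 0.17 for the AdCtrl samples against their own group). The median deviation ran from 0.67 on the log2 CPM scale among the 10% of genes that were shortest (at most 1.33 kb) to -0.75 in the longest 10% (from 8.84 kb). CLOCK, the longest member at 12.1 kb, deviated by -0.999 in this library. PER2 (7.27 kb) deviated by -0.92 and PER3 (7.33 kb) by -0.48, where the median of genes of their length was -0.43. CRY2 (4.74 kb) deviated by -0.58 against a median of -0.16 for genes of its length, and PER1 (5.35 kb) by -0.39 against -0.30. The other 5 members, between 2.44 kb (NFIL3) and 4.30 kb (BHLHE41), stayed within 0.14 of the other AdSIRT4 replicates, BHLHE40 (3.62 kb) at -0.14 and NR1D1 (3.02 kb) at -0.03. Results are therefore given with and without AdSIRT4 replicate 1. The part of RNA quality in this trend was not tested.

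All 10 members were expressed in HK2 cells, over a wide range of levels. On the FPKM scale, the level over all 6 samples was 29.6 for BHLHE40 (range 23.1 to 37.7), 14.1 for NFIL3 (12.3 to 16.2), 12.9 for CRY1 (11.6 to 13.8) and 9.36 for PER3 (5.75 to 11.8). Lower levels were found for BHLHE41 at 5.06 FPKM (4.68 to 6.08), CRY2 at 3.06 (1.81 to 3.93), CLOCK at 2.79 (1.44 to 3.27), PER1 at 2.60 (1.77 to 3.29), NR1D1 at 1.44 (0.909 to 2.02) and PER2 at 1.08 (0.554 to 1.36). In this order, BHLHE40 lay above NFIL3 and BHLHE41 above CRY2 without any overlap of their samples. All other neighbours overlapped in their ranges. NFIL3 still exceeded CRY1, CRY1 exceeded PER3, PER3 exceeded BHLHE41 and PER1 exceeded NR1D1 within each of the 6 samples, whereas CRY2 exceeded CLOCK in 5 samples, CLOCK exceeded PER1 in 4, and NR1D1 exceeded PER2 in 5. PER3 was thus the most abundant PER transcript in these cells and CRY1 the more abundant CRY transcript in every sample.

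**Figure D1:**
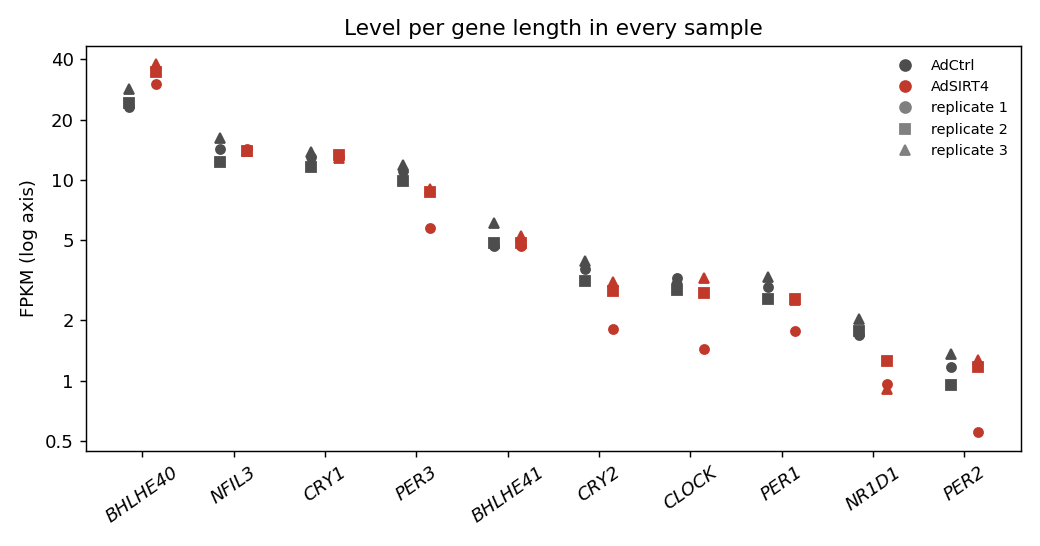
FPKM of the 10 circadian regulators (log axis) in each of the 6 samples, ordered by their mean over all samples; grey is AdCtrl and red AdSIRT4, and the marker shape gives the replicate. BHLHE40 lies above all other members in every sample, between 23.1 and 37.7 FPKM, and the low red circles of PER3, CRY2, CLOCK, PER1 and PER2 are AdSIRT4 replicate 1.

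Comparison of AdSIRT4 with AdCtrl cells placed BHLHE40 higher and NR1D1, PER3, CRY2 and PER1 lower, while BHLHE41, CRY1, NFIL3, PER2 and CLOCK overlapped between the groups. None of the 10 members passed an adjusted p of 0.05 (edgeR, Benjamini-Hochberg over all genes tested), and only 2 genes of the 17720 did (0.0113%; 1 gene with the replicate number as a block). At an unadjusted p under 0.05, 4 of 10 members were called, BHLHE40 upward and NR1D1, PER3 and CRY2 downward, beside 7.93% of all genes. The samples of the groups did not overlap in CPM for 5 of 10 members, 1 higher and 4 lower in AdSIRT4, beside 19.4% of all genes. The median log2 fold change of the members was -0.21, against 0.02 for all genes. Without AdSIRT4 replicate 1, 3 of 10 members passed the adjusted threshold, BHLHE40 upward and NR1D1 and PER3 downward, beside 6.71% of the 18287 genes then tested, and the median of the members was -0.05. The same 5 members did not overlap between the groups in that comparison, beside 41.8% of all genes. Because the members were chosen with earlier results of these data known, their counts beside these shares are a description and no test. In bulk RNA, fewer cells that express a gene and less of its RNA per cell cannot be told apart. The study's paper describes n in experiments on cultured cells as technical replicates. If this holds for the sequenced samples, the p-values measure only the spread between these samples.

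**Figure D2:**
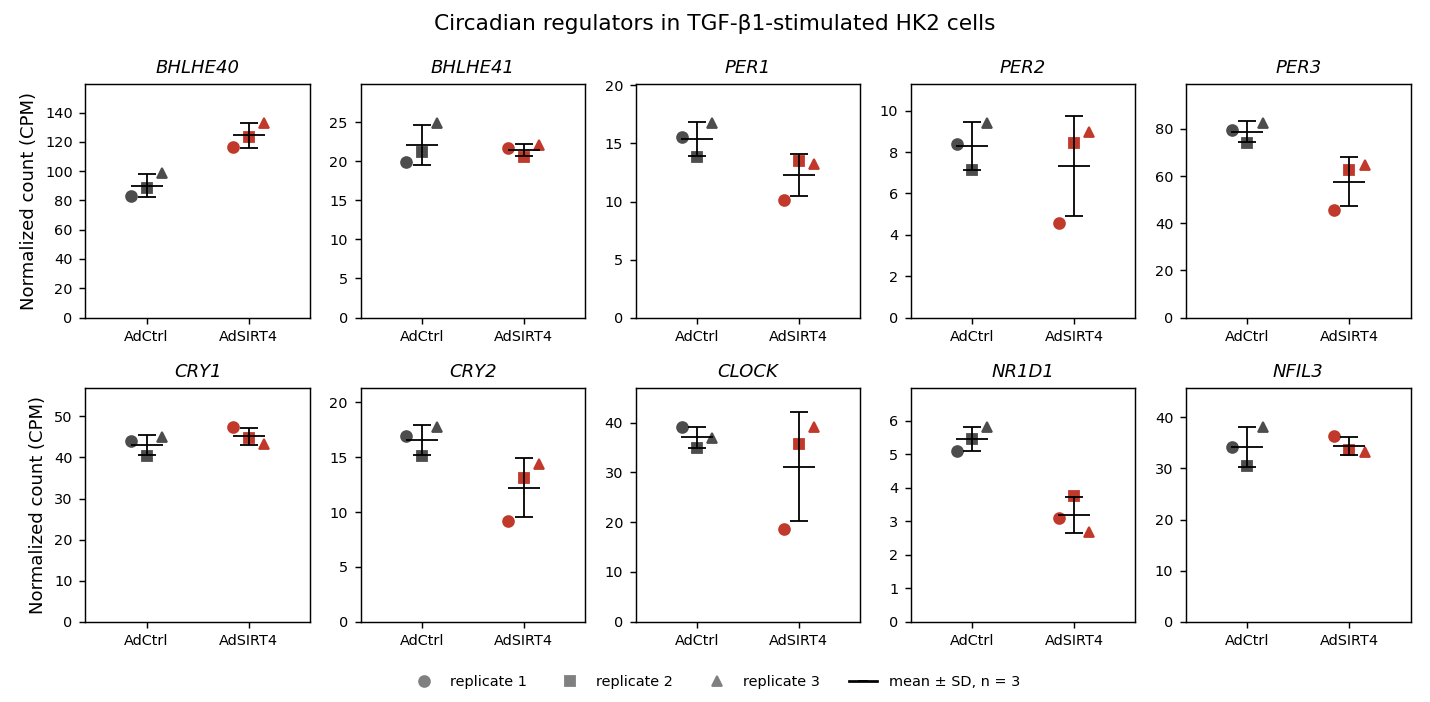
Normalized counts (CPM, linear axes from 0) of the 10 circadian regulators in the 3 AdCtrl (grey) and 3 AdSIRT4 (red) samples, with the mean ± SD of each group as bars. BHLHE40 is higher in all 3 AdSIRT4 samples and NR1D1, PER3, CRY2 and PER1 lower in all 3, and AdSIRT4 replicate 1 is the lowest sample for PER1, PER2, PER3, CRY2 and CLOCK.

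BHLHE40 (Entrez gene 8553, chromosome 3 from 4979437 to 4985323 on GRCh38), the E-box repressor also called DEC1, was counted at 82.8, 88.6 and 98.5 CPM in the AdCtrl samples (here and below in the order of replicates 1, 2 and 3) and at 117, 124 and 133 CPM in the AdSIRT4 samples. The groups did not overlap, the AdSIRT4 samples being the higher ones, with AdSIRT4 replicate 1 the lowest of its group. The means were 90.0 ± 7.93 and 124 ± 8.33 CPM (SD, n = 3 each). This is a 1.38-fold higher level (95% confidence interval 1.16 to 1.65) or a log2 fold change of 0.47 (SE 0.106, unadjusted p = 0.00307, adjusted p = 0.494, edgeR). The two-sided exact permutation test gave p = 0.1, the smallest value that 3 against 3 samples can give. With AdSIRT4 replicate 1 left out, BHLHE40 rose by 0.51 on the log2 scale (adjusted p = 0.00363, edgeR). The log2 fold change stayed between 0.41 and 0.54 over 19 other settings of the analysis, and the adjusted p was under 0.05 in 4 of them (range 0.00213 to 0.971). These were the DESeq2 test and settings that left out AdSIRT4 replicate 1 or gave it a low weight, so they are not separate lines of evidence. The antisense gene BHLHE40-AS1 shares 4 exonic bases with BHLHE40 in GENCODE release 29, and it had 5 to 111 counts per sample against 3765 to 10821 for BHLHE40.

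BHLHE41 (DEC2; Entrez gene 79365, chromosome 12 from 26120030 to 26125037), the paralog with the same E-box binding, did not share this pattern. It stood at 19.96, 21.2 and 24.9 CPM in AdCtrl and at 21.7, 20.5 and 22.1 CPM in AdSIRT4 samples. The AdSIRT4 samples all lay inside the AdCtrl range. SSPN on the opposite strand shares 162 exonic bases with BHLHE41 and had 189 to 355 counts per sample, at a log2 fold change of -0.27 (unadjusted p = 0.130 in edgeR). BHLHE41 had a log2 fold change of -0.04 (SE 0.113), with an interval from -0.31 to 0.22 (adjusted p = 0.905, edgeR). The FPKM ratio of BHLHE40 to BHLHE41 was 4.93, 4.96 and 4.69 in AdCtrl and 6.40, 7.15 and 7.17 in AdSIRT4 samples. It was higher in all 3 AdSIRT4 samples, by 0.50 on the log2 scale (0.56 without AdSIRT4 replicate 1). The exact permutation test gave p = 0.1, or 0.2 after Benjamini-Hochberg adjustment over the 6 ratios compared within the clock.

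The PER genes encode the repressors whose build-up times the loop. PER1 (Entrez gene 5187, chromosome 17 from 8140472 to 8152404) reached 15.5, 13.9 and 16.8 CPM in AdCtrl and 10.2, 13.5 and 13.2 CPM in AdSIRT4 samples. The groups did not overlap, though AdSIRT4 replicates 2 and 3 lay close under the lowest AdCtrl sample. PER1 had a log2 fold change of -0.32 (SE 0.144, adjusted p = 0.647, edgeR), and -0.21 (adjusted p = 0.179) without AdSIRT4 replicate 1.

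PER2 (Entrez gene 8864, chromosome 2 from 238244044 to 238300065) stood at 8.40, 7.11 and 9.42 CPM in AdCtrl and at 4.57, 8.43 and 8.97 CPM in AdSIRT4 samples. AdSIRT4 replicate 1 was the lowest of all 6 samples, and the other AdSIRT4 samples lay within the AdCtrl range. The log2 fold change of -0.17 had an interval from -0.78 to 0.44 (adjusted p = 0.842, edgeR), and it was 0.06 without AdSIRT4 replicate 1. The FPKM ratio of PER1 to PER2 differed by -0.07 on the log2 scale (exact permutation p = 0.8), and the ratio of PER2 to its partner CRY2 by 0.20 (p = 0.3, exact, or 0.45 adjusted over the 6 ratios). These differences were -0.28 and 0.35 without AdSIRT4 replicate 1, and the groups no longer overlapped in either ratio. In that comparison 41.8% of all genes did not overlap between the groups in CPM, and the ratios were not tested without that library.

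PER3 (Entrez gene 8863, chromosome 1 from 7784291 to 7845177), the family member least needed for the loop itself, was the PER gene with the largest difference in both fits. It reached 79.7, 74.0 and 82.6 CPM in AdCtrl and 45.5, 62.7 and 64.5 CPM in AdSIRT4 samples. All AdSIRT4 samples lay below all AdCtrl samples, AdSIRT4 replicate 1 by the widest margin. The means were 78.8 ± 4.38 and 57.6 ± 10.5 CPM (SD, n = 3 each). PER3 had a log2 fold change of -0.45 (SE 0.147, unadjusted p = 0.0181, adjusted p = 0.556, edgeR). Without AdSIRT4 replicate 1, PER3 fell by 0.31 on the log2 scale (adjusted p = 0.0113). With the dependence on gene length removed from every library, the value over all 6 samples was -0.37 (adjusted p = 0.111). UTS2 on the opposite strand shares 868 exonic bases with PER3, and it had at most 2 counts in any sample.

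CRY1 and CRY2 encode the cryptochromes, the partners of the PER proteins and the strongest repressors of CLOCK and BMAL1. CRY1 (Entrez gene 1407, chromosome 12 from 106991364 to 107093549) stood at 44.0, 40.3 and 44.9 CPM in AdCtrl and at 47.4, 44.7 and 43.2 CPM in AdSIRT4 samples, which overlapped. Its log2 fold change was 0.07 with an interval from -0.15 to 0.29 (adjusted p = 0.835, edgeR). CRY2 (Entrez gene 1408, chromosome 11 from 45847118 to 45883244) reached 16.9, 15.1 and 17.8 CPM in AdCtrl and 9.19, 13.1 and 14.4 CPM in AdSIRT4 samples. Every AdSIRT4 sample lay below every AdCtrl sample. The log2 fold change was -0.44 (SE 0.176, unadjusted p = 0.0416, adjusted p = 0.612, edgeR), and it was -0.28 (adjusted p = 0.0831) without AdSIRT4 replicate 1. The FPKM ratio of CRY1 to CRY2 was 3.60, 3.71 and 3.50 in AdCtrl and 7.16, 4.79 and 4.16 in AdSIRT4 samples, so all AdSIRT4 samples were higher. The difference of 0.54 on the log2 scale was 0.31 without AdSIRT4 replicate 1 (exact permutation p = 0.1 with all samples, adjusted 0.2).

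CLOCK (Entrez gene 9575, chromosome 4 from 55427903 to 55546909), the activator of the loop, stood at 39.1, 34.9 and 37.0 CPM in AdCtrl and at 18.7, 35.6 and 39.1 CPM in AdSIRT4 samples. AdSIRT4 replicate 1 had about 0.504 times the AdCtrl mean, and the other AdSIRT4 samples lay within the AdCtrl range. CLOCK had a log2 fold change of -0.25 (interval -0.86 to 0.36, adjusted p = 0.789, edgeR) with all samples and 0.01 without AdSIRT4 replicate 1. TMEM165 on the opposite strand shares 76 of the 11762 exonic bases of CLOCK. TMEM165 had 3750 to 8837 counts per sample, at a log2 fold change of 0.23 (unadjusted p = 0.0466 in edgeR). BMAL1 (ARNTL), the partner of CLOCK, was at 16.1, 15.6 and 16.5 CPM in AdCtrl and at 13.3, 14.5 and 14.4 CPM in AdSIRT4 samples. These groups did not overlap, which held for 19.4% of all genes. The log2 fold change of BMAL1 was -0.19 (adjusted p = 0.678, edgeR), and -0.15 (adjusted p = 0.226) without AdSIRT4 replicate 1. The FPKM ratio of BMAL1 to CLOCK overlapped between the groups (log2 difference 0.20, exact permutation p = 0.7), and its difference was -0.07 without AdSIRT4 replicate 1.

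NR1D1 (REV-ERBα; Entrez gene 9572, chromosome 17 from 40092793 to 40100589), the heme-binding nuclear receptor that represses BMAL1, had the largest difference of the 10 members, both in the fit of all 6 samples and without AdSIRT4 replicate 1. It reached 5.09, 5.46 and 5.82 CPM in AdCtrl and 3.10, 3.75 and 2.68 CPM in AdSIRT4 samples. All AdSIRT4 samples lay below all AdCtrl samples, and AdSIRT4 replicate 1 lay between the other AdSIRT4 samples. The means were 5.46 ± 0.367 and 3.18 ± 0.536 CPM (SD, n = 3 each), from raw counts of 275, 232 and 299 against 121, 323 and 218. This is a 1.71-fold lower level or a log2 fold change of -0.78 (SE 0.164, 95% interval -1.16 to -0.39, unadjusted p = 0.00205, adjusted p = 0.494, edgeR). Without AdSIRT4 replicate 1, NR1D1 fell by 0.77 on the log2 scale (adjusted p = 0.0202). Over the 19 other settings the log2 fold change ran from -0.91 to -0.47 and the adjusted p from 0.00933 to 0.971, under 0.05 in 4. As for BHLHE40, these were DESeq2 and settings that left out AdSIRT4 replicate 1 or gave it a low weight. THRA, on the opposite strand, shares 263 of the 2772 exonic bases of NR1D1 and had 795 to 2170 counts per sample. Its log2 fold change was -0.21 (unadjusted p = 0.126 in edgeR). Whether the counting used strand is not given in the sources used here, so reads from the shared stretch cannot be assigned to either gene.

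NFIL3 (E4BP4; Entrez gene 4783, chromosome 9 from 91409045 to 91483497), the D-box repressor whose gene NR1D1 is known to repress, stood at 34.2, 30.4 and 38.2 CPM in AdCtrl and at 36.3, 33.7 and 33.2 CPM in AdSIRT4 samples. The AdSIRT4 samples lay inside the AdCtrl range. For NFIL3 the log2 fold change was 0.01 with an interval from -0.26 to 0.27 (adjusted p = 0.986, edgeR). DBP, the D-box activator that opposes NFIL3, was at 7.62, 8.12 and 7.77 CPM in AdCtrl and at 6.80, 3.53 and 3.41 CPM in AdSIRT4 samples. The FPKM ratio of NFIL3 to DBP was 4.61, 3.85 and 4.98 in AdCtrl and 5.63, 9.72 and 9.94 in AdSIRT4 samples. It was higher in all AdSIRT4 samples, with AdSIRT4 replicate 1 close to the AdCtrl samples (log2 difference 0.87, and 1.14 without that library). The exact permutation p was 0.1, or 0.2 adjusted over the 6 ratios.

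**Figure D3:**
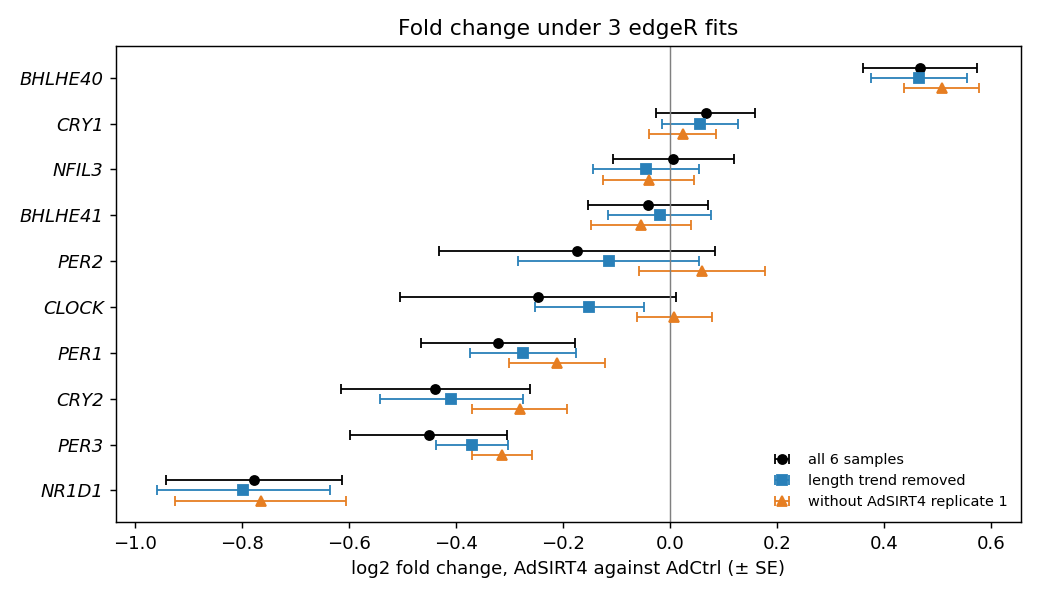
Log2 fold change of AdSIRT4 against AdCtrl (horizontal axis, points with ± SE) for the 10 circadian regulators in 3 edgeR fits: all 6 samples (black), all 6 samples with the length trend of every library removed (blue) and without AdSIRT4 replicate 1 (orange). BHLHE40 (0.47, 0.47 and 0.51) and NR1D1 (-0.78, -0.80 and -0.77) hardly move between the fits, while CLOCK goes from -0.25 to 0.01 and PER2 from -0.17 to 0.06.

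The genes closest to BHLHE40 in their pattern were KTN1, PDGFB, ZNF267, VNN2 and DSP-AS1. Their log2 CPM correlated with that of BHLHE40 at Pearson's r of 0.999, 0.993, 0.992, 0.992 and 0.991 over the 6 samples (Spearman's rho 1 for each). They are the highest of 14101 genes with a mean of at least 1 CPM, of which 58 had an r above 0.95 by the same measure. The samples share their groups and libraries, so the values are a description. KTN1, which encodes the kinesin-binding protein kinectin, had a similar order of samples at a small amplitude, from 418 to 444 CPM. PDGFB, a growth factor chain for mesenchymal cells, ranged from 28.9 to 31.8 CPM in AdCtrl and from 36.7 to 39.9 CPM in AdSIRT4 samples. Among the members, NR1D1 had the most opposite pattern to BHLHE40 (r = -0.87), and CRY1 the most similar (r = 0.38).

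The remaining genes of the clock loops were listed from general knowledge, 12 genes of which RORB had too few counts. Of the 11 tested, 4 had a higher and 7 a lower fitted level in AdSIRT4 cells, and none passed the adjusted threshold. At an unadjusted p under 0.05, 1 was higher (CIART, a repressor of CLOCK and BMAL1) and 3 were lower, beside 7.93% of all genes, with a median log2 fold change of -0.11. The 3 lower ones were the D-box activators TEF (-0.45, adjusted p = 0.506), HLF (-0.33, adjusted p = 0.545) and DBP (-0.79, adjusted p = 0.586, edgeR). CIART had a log2 fold change of 0.43 (adjusted p = 0.614), and 0.29 (adjusted p = 0.245, edgeR) without AdSIRT4 replicate 1, its highest sample at 5.67 CPM. Without AdSIRT4 replicate 1, DBP fell by 1.18 (adjusted p = 0.000451), TEF by 0.43 (0.0411) and HLF by 0.32 (0.0443) on the log2 scale, and RORA, an activator of BMAL1 chosen for mention after its values were seen, rose by 0.93 (0.0154, edgeR), beside 6.71% of all genes called in that fit. RORA was at a low level, 1.78, 2.33 and 1.71 CPM in AdCtrl and 1.90, 3.97 and 3.40 CPM in AdSIRT4 samples. With all 6 samples its groups overlapped, AdSIRT4 replicate 1 lying inside the AdCtrl range (log2 fold change 0.69, adjusted p = 0.630, edgeR). NR1D2, the paralog of NR1D1, was at 68.2 to 76.6 CPM in AdCtrl and 70.4 to 79.6 CPM in AdSIRT4 samples, which overlapped.

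**Figure D4:**
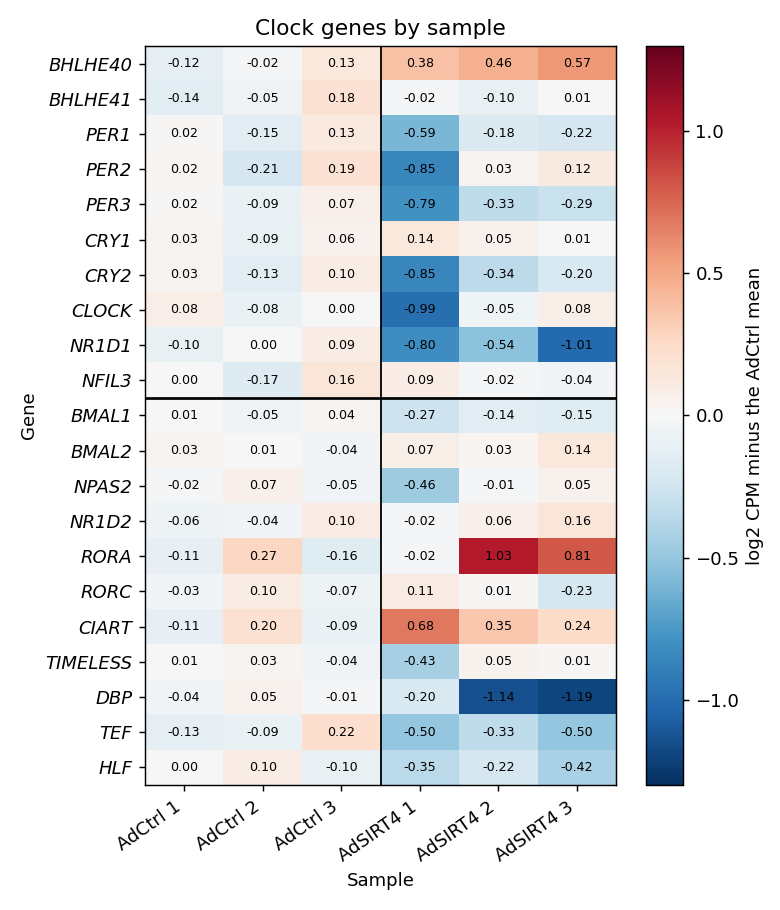
Log2 CPM minus the AdCtrl mean (colour scale and printed value) for the 10 circadian regulators (above the line) and the 11 other tested clock-loop genes, in each of the 6 samples. BHLHE40 is the member with the deepest red in the 3 AdSIRT4 samples (0.38, 0.46 and 0.57), NR1D1 is blue in all 3 (-0.80, -0.54 and -1.01), and DBP is lowest in AdSIRT4 replicates 2 and 3 (-1.14 and -1.19).

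Another list held kinases, phosphatases and ubiquitin ligases that act on clock proteins such as PER and CRY. Of 16 genes tested, 9 were fitted higher and 7 lower, with a median log2 fold change of 0.02. None passed the adjusted threshold, and 2 had an unadjusted p under 0.05, both higher, beside 7.93% of all genes. CUL4A, a scaffold of ubiquitin ligases, had a log2 fold change of 0.22 (adjusted p = 0.612, edgeR). Next in p came BTRC, the ligase subunit for PER proteins (-0.20, adjusted p = 0.744), and CSNK2B (0.18, adjusted p = 0.781), which were at -0.06 and -0.05 without AdSIRT4 replicate 1. Among 12 known clock output genes, 4 were fitted higher and 8 lower. None passed the adjusted threshold, and 4 had an unadjusted p under 0.05, 2 in each direction, beside 7.93% of all genes. KLF10, also known as a TGF-β target, was higher (0.30, adjusted p = 0.563). TSC22D3 (-0.57, adjusted p = 0.553) and SCNN1A, a subunit of the epithelial sodium channel (-0.33, adjusted p = 0.545, edgeR), were lower. In the fit without AdSIRT4 replicate 1, CUL4A passed the adjusted threshold in the former list, and 2 genes upward and 2 downward in the latter, beside 6.71% of all genes.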

How the data were processed

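Gene-level RNA-seq values were available for 6 HK2 samples. The authors deposited whole-number counts without normalization, and their other table was read as FPKM deposited by the authors. After a common factor was taken out of each sample, the gene length it implies was the same in all samples within 5% for 13233 of 15894 genes. This shows a scaling by gene length. It cannot tell FPKM from a unit that differs by a factor for each sample. The submitters' processing notes name fastp 0.21.0, HISAT2 2.1.0, StringTie 2.1.5, DESeq2 1.30.1 and hg38, without their roles. One label numbers the cell line differently in each sample, while all titles read HK2, and all were taken as HK2.

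Counts were filtered with filterByExpr (minimum count 10), scaled by TMM and compared with the robust quasi-likelihood test of edgeR 4.0.16 (R 4.3.3), with Benjamini-Hochberg adjustment over all genes. For single genes and ratios, two-sided exact permutation tests were used. No replicates were copies of each other. Samples with the same replicate number deviated together (r = 0.178, 0.159 and 0.176, against -0.188 to 0.030 for other pairs). Because deviations were taken from each group's own mean, a positive r for some pairs lowers that of others. The titles give a replicate number without stating a pairing. The number was therefore used as a block in an alternative, and the main fit and the exact tests did not use it. Other alternatives were DESeq2 1.42.0, RLE scaling, other count filters, limma 3.58.1 on log2(FPKM + 1) and log2(FPKM + 0.1), removal of the length trend of every library, voom with sample quality weights and each sample left out. The procedures were tested on simulated data. The depth, 41537353 to 85684748 counts per sample, limits NR1D1 most, at 121 to 323 counts per sample.

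Members, lists and alternatives were chosen with earlier results of these data known. Named genes were the members, SIRT4, partners in the fixed ratios, the 4 genes of each other list with the smallest p and the 5 closest correlates of BHLHE40. Some genes that meet this rule are not reported here. A comparison of the members' protein sequences was not analysed here.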

Additional observations from a re-analysis of the deposited data

How the results depend on the processing

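Of the log2 fold changes of single genes recomputed under 19 alternatives, 538 kept their direction and their side of the threshold, 65 moved past the threshold, 5 no longer passed it and 17 turned. The 5 were all of SIRT4, whose adjusted p was 0.0778 with limma on log2(FPKM + 1), 0.416 with the replicate block added to that fit, and 0.0559 to 0.203 in the edgeR fits without an AdCtrl replicate. The number of all genes called moved by over 1.5 times in 18 alternatives, and that of members in 4 (adjusted) and 2 (unadjusted). The adjusted p of BHLHE40 passed 0.05 with DESeq2 (log2 fold change 0.468), voom with sample quality weights (0.496), without AdSIRT4 replicate 1 (0.507) and with the length trend removed and that library left out (0.517), and that of NR1D1 in the same settings (-0.776, -0.65, -0.765 and -0.746). All of these settings but DESeq2 left out or down-weighted AdSIRT4 replicate 1. Its voom weight was 0.0795, against 0.984 to 2.915 for the other samples. In fits that left out 1 sample, BHLHE40 ranged from 0.411 to 0.537, NR1D1 from -0.913 to -0.665, BHLHE41 from -0.108 to 0.0561, PER2 from -0.342 to 0.0588, CLOCK from -0.443 to 0.00771, NFIL3 from -0.0734 to 0.0901 and CSNK2B from -0.0507 to 0.293. The number of members with an adjusted p under 0.05, 0 with edgeR, was 2 with DESeq2, 4 with voom, 3 with the length trend removed and AdSIRT4 replicate 1 left out, and 0 to 3 with 1 sample left out. At an unadjusted p under 0.05, 2 to 5 members were called with 1 sample left out, 2 without AdCtrl replicate 1 or 3. The cause was not tested.

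Directions turned in 5 genes. BHLHE41 turned without AdCtrl replicate 3, and CLOCK, PER2, NFIL3 and CSNK2B without AdSIRT4 replicate 1. PER2 was also at 0.041 with voom and at 0.0284 with the length trend removed and AdSIRT4 replicate 1 left out. NFIL3 was at -0.0123 with limma on log2(FPKM + 1), -0.0126 on log2(FPKM + 0.1), -0.0444 with the length trend removed (-0.0396 with the replicate block, -0.00702 without AdSIRT4 replicate 1), -0.0169 with voom and -0.0404 without AdSIRT4 replicate 1, and it turned without AdCtrl replicate 2. CSNK2B was at -0.0307 with voom.

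The number of all genes with an adjusted p under 0.05 was 2 with edgeR (1406 at an unadjusted p), 206 with DESeq2, 5 with all genes of at least 1 count, 4 with at least 10 counts in every sample, 0 with limma on log2(FPKM + 1) (1956 unadjusted; 5 adjusted with a mean of at least 1 FPKM), 1 on log2(FPKM + 0.1), 12 with the length trend removed, 1685 with voom, 0 to 1227 with 1 sample left out (0 in each fit without an AdCtrl replicate, with 668 to 839 at an unadjusted p, and 1227 without AdSIRT4 replicate 1) and 1386 with the length trend removed and that library left out. With the replicate block it was 1 with edgeR, 6 with the length trend removed and 0 with limma (1787 unadjusted). The replicate block changed no member's call (BHLHE40 0.469, adjusted p = 0.667; NR1D1 -0.791, adjusted p = 0.667, edgeR). The last alternative, the length trend removed without AdSIRT4 replicate 1, was chosen after seeing the data. With 3 samples a group the exact test cannot pass 0.05, and depth limits NR1D1 and PER2, the members with the fewest counts.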

Other observations

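Lists of genes that respond to known inputs of the clock were compared in the same fit. Of 12 hypoxia-responsive genes tested, 11 were fitted higher and 1 lower in AdSIRT4 cells, with a median log2 fold change of 0.67. None passed the adjusted threshold of 0.05 in edgeR, and 9 had an unadjusted p under 0.05 upward and 1 downward, beside 7.93% of all genes in both directions together. NDRG1, a stress-induced differentiation gene, was at 86.4, 84.5 and 78.8 CPM in AdCtrl and at 181, 166 and 152 CPM in AdSIRT4 samples, which did not overlap (log2 fold change 0.996, adjusted p = 0.0892, edgeR). PFKFB4, which acts on glycolysis, and PDK1, which acts on pyruvate dehydrogenase in the mitochondria, had log2 fold changes of 0.78 and 0.62 (adjusted p = 0.239 for both). ADM, the vasodilator adrenomedullin, was at 0.77 (adjusted p = 0.494, edgeR). The lower gene was DDIT4 (-0.43, adjusted p = 0.494), named after its values were seen. Without AdSIRT4 replicate 1, 8 genes rose and 1 fell at an adjusted p under 0.05 in edgeR, beside 6.71% of all genes. An earlier result of these data had pointed to hypoxia genes, so the list is not independent of it.

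Of 7 glucocorticoid-responsive genes tested, DUSP1 was higher (0.60, adjusted p = 0.509) and TSC22D3 (-0.57, adjusted p = 0.553) and FKBP5 (-0.33, adjusted p = 0.612) were lower at an unadjusted p under 0.05, beside 7.93% of all genes, with a median of -0.21. KLF9 came next, at -0.51 (adjusted p = 0.637, edgeR). Of 8 CREB-responsive genes tested, DUSP1 and SIK1 (0.30, adjusted p = 0.628) were higher at an unadjusted p under 0.05, and none was lower, again beside 7.93% of all genes. SIK1, FOS (0.38, adjusted p = 0.718) and NR4A2 (-0.36, adjusted p = 0.716, edgeR) overlapped between the groups. None of the genes in either list passed the adjusted threshold with all 6 samples. Without AdSIRT4 replicate 1, TSC22D3 fell by 0.80 (adjusted p = 0.000225) and CEBPD by 0.52 (0.000719) on the log2 scale, and ERRFI1 rose by 0.20 (0.0485) and SIK1 by 0.38 (0.0202, edgeR), beside 6.71% of all genes. Other named genes did not pass in that fit: FOS was at 0.13, DUSP1 at 0.43 (adjusted p = 0.0632) and FKBP5 at -0.23 (0.0555). KLF9 was at -0.34 (0.203) and NR4A2 at -0.44 (0.218, edgeR). CEBPD and ERRFI1 were named after their values were seen. CEBPD overlapped between the groups with all 6 samples (-0.21, adjusted p = 0.789, edgeR). It was at 203, 204 and 190 CPM in AdCtrl and at 237, 139 and 139 CPM in AdSIRT4 samples, so AdSIRT4 replicate 1 lay above every AdCtrl sample.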
